A study of Homo sapiens with 72 samples.

Results

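GADD45A and GADD45B were followed in every library of a time course of mRNA decay in A375 cells, an established human melanoma line. They were chosen by name as textbook targets of translation-dependent decay and of nonsense-mediated decay (NMD), and are 2 of the 44659 gene names of the count table. The remaining family member, GADD45G, had 0 counts in 64 of 72 libraries and at most 18 in any library, and it was not tested. The 72 libraries were made with QuantSeq, a method that reads polyadenylated RNA near its 3′ end, and cytoplasmic RNA was its input. They covered 4 conditions, with 3 replicates in each group. Cells transfected for 42 h with 2 pooled siRNAs against CTU2 (siCTU2) were set against cells given the control siRNA GL2 (siGL2). Medium lacking glutamine (mQ, for 18 h) was set against medium that held it (pQ). Libraries were taken at 0, 3 and 5 h of triptolide (25 µM), a blocker of transcription, given alone (T arm) or with cycloheximide (100 µg/ml), a blocker of translation elongation (TCHX arm). All cells were A375, so the values describe 1 cell line.

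GADD45 proteins are small acidic stress proteins with no known catalytic activity. They bind the kinase MAP3K4 upstream of p38 and JNK, the replication clamp PCNA, the CDK inhibitor p21 and the CDK1-cyclin B complex, and they slow the cell cycle after DNA damage, starvation and other stresses. Their mRNAs are made quickly on stress and are short-lived, so that blocking translation with cycloheximide classically raises their level. NMD removes mRNAs on which a ribosome stops in a context read as premature, and it needs translation. GADD45A and GADD45B mRNAs are known for accumulating when NMD factors are lost.

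The transcripts were first examined in GENCODE v44 (GRCh38). GADD45A lies on chromosome 1 (67685201 to 67688334, plus strand), and its canonical transcript has 4 exons, 1352 bases, a 5′ UTR of 294 bases, 165 codons and a 3′ UTR of 560 bases. GADD45B lies on chromosome 19 (2476122 to 2478259, plus strand), with 4 exons, 1371 bases, a 5′ UTR of 232 bases, 160 codons and a 3′ UTR of 656 bases. An upstream ATG, which can start an upstream ORF and so lead to NMD, was found in neither 5′ UTR (0 in each). At least 1 was present in 42.8% of 19131 canonical transcripts, and 55.8% of the 2855 canonical transcripts with a 5′ UTR of 200 to 300 bases held an upstream ORF that ended before the start codon. The sequences below are shown because the 3′ UTR is where decay elements and the QuantSeq reads lie, and because the element ATTTA, the core of AU-rich decay elements, differed between the genes. ATTTA, read on the transcript strand with overlaps allowed, was present 2 times in the 3′ UTR of GADD45A and 0 times in that of GADD45B. At least 1 was present in 57.7% of the 1567 canonical 3′ UTRs of 500 to 700 bases, and at least 2 in 31.5%. The capitals mark ATTTA in the first 2 lines and the poly(A) signal AATAAA in the last 2, a signal present in the last 50 bases of 66.0% of 18796 canonical 3′ UTRs.
GADD45A chr1:67688049-67688061: attaATTTAgaat
GADD45A chr1:67688268-67688280: agttATTTAtgct
GADD45A chr1:67688304-67688333: ctacAATAAActggtatgaataattgcatc
GADD45B chr19:2478235-2478257: ttgtAATAAAtttctaaagcctc
All 4 lie in the last exon of the plus strand. The longer AU-rich element TTATTTATT (8.52% of 19144 canonical 3′ UTRs) and the Pumilio element TGTANATA (25.7%) were searched on the same strand and were present 0 times in both 3′ UTRs, and no match says only that these letters were not in them.

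Codon content was compared with that of 19510 canonical coding sequences, since CTU2 is needed to thiolate tRNAs that read codons such as AAA and GAA. GADD45A held 1 AAA codon among 165 (0.606%, against a median of 2.04% over all sequences) and 6 GAA codons (3.64%, against 2.44%). GADD45B held 0 AAA codons among 160 and 4 GAA codons (2.50%). Codons ending in G or C made up 73.9% of GADD45A and 86.9% of GADD45B, the latter above 96.3% of all sequences.

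Library totals ranged from 5987692 to 15534331 counts. CTU2 reached 1.01 to 2.95 CPM (a count scaled to the library total) in siCTU2 cells and 21.1 to 24.2 CPM in siGL2 cells before triptolide had acted (T, 0 h). The melanoma markers SOX10, MITF, S100B and S100A1 were present in all libraries. Of the pigment genes, DCT (14.0 to 111 CPM) and PMEL (1.60 to 9.75 CPM) were also present in all, while MLANA and TYR did not exceed 1.47 CPM. Moreover, 3 libraries of replicate 3 stood apart, 1 each from pQ cells (TCHX, 0 h), from mQ cells (T, 5 h) and from the group labelled siCTU2 (TCHX, 5 h). Between 19896 and 20364 genes had a count in them, while the other 69 libraries detected between 15507 and 17495. Of a list of 7 markers of other cell types, the leukocyte genes PTPRC and CD3E lay at 31.1 to 32.6 CPM in these 3 libraries and at most at 0.759 CPM elsewhere, the fibroblast gene COL1A1 at 1.60 to 2.57 CPM and at most at 1.17 CPM elsewhere, and the keratinocyte gene KRT5 and the fibroblast gene COL3A1 at 0. The keratinocyte gene KRT14 and the endothelial gene PECAM1 lay at most at 0.0887 and 0.177 CPM in these 3 libraries, and at most at 1.22 and 0.789 CPM elsewhere. The summed level of the list was 65.6 to 67.1 CPM against 0 to 1.52 CPM. The library labelled siCTU2 TCHX 5 h replicate 3 also had 10.4 CPM of CTU2, against 0.203 and 0.168 CPM in replicates 1 and 2. Values without them are given where they move a tested result of GADD45A or GADD45B, while the ranges and the order of group levels include them.

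The starting level of both mRNAs was next compared between conditions. At 0 h in the T arm, GADD45A was 74.5, 75.0 and 65.2 CPM in the siCTU2 libraries and 32.1, 36.03 and 33.1 CPM in the siGL2 libraries. All siCTU2 libraries were above all siGL2 libraries. How many of all genes separated in this way was not counted. GADD45A was 2.11-fold higher in siCTU2 cells (log2 fold change 1.08, SE 0.11, edgeR adjusted p = 2.57e-07), a comparison in which 36% of 12292 genes differed in either direction. GADD45B was 16.8, 19.3 and 16.6 CPM in siCTU2 cells and 12.7, 12.99 and 11.9 CPM in siGL2 cells, again without overlap. It was 1.40-fold higher (log2 0.48, SE 0.16, edgeR adjusted p = 0.0253). In the TCHX arm at 0 h, harvested at the start of the same treatment, GADD45A was 0.92 higher on the log2 scale (edgeR adjusted p = 4.18e-06) while GADD45B did not pass the threshold (0.37, edgeR adjusted p = 0.106). The call of GADD45B was also lost without siGL2 replicate 1 (0.48, adjusted p = 0.0618), siGL2 replicate 3 (0.44, adjusted p = 0.0709) or siCTU2 replicate 2 (0.41, adjusted p = 0.102).

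GADD45A was also higher without glutamine, while GADD45B did not pass the threshold. GADD45A was 63.9, 68.1 and 99.6 CPM in the mQ libraries at 0 h of the T arm, and 31.8, 29.7 and 30.4 CPM in the pQ libraries. The lowest mQ library was above the highest pQ library, and how many of all genes separated in this way was not counted. GADD45A was 2.62-fold higher in mQ cells (log2 1.39, SE 0.16, edgeR adjusted p = 0.000225), where 24.8% of 12374 genes differed in either direction. GADD45B was 8.79, 7.23 and 11.1 CPM in mQ cells and 12.2, 13.8 and 12.5 CPM in pQ cells. Its log2 difference, mQ minus pQ, was -0.45 (SE 0.21, 95% CI -0.92 to 0.01), which did not pass the threshold (edgeR adjusted p = 0.137). In the TCHX arm at 0 h GADD45B had the opposite sign (0.33, edgeR adjusted p = 0.358), and 0.31 without the pQ library that stands apart. The T and TCHX arms overlapped at 0 h in normalised counts except for GADD45B in pQ cells, which was 159 to 193 in the T arm and 107 to 145.5 in the TCHX arm. GADD45A was higher in mQ cells by 1.69 in the TCHX arm, and by 1.75 without that library. In bulk RNA, fewer cells with an mRNA and less of it per cell cannot be told apart.

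**Figure D1:**
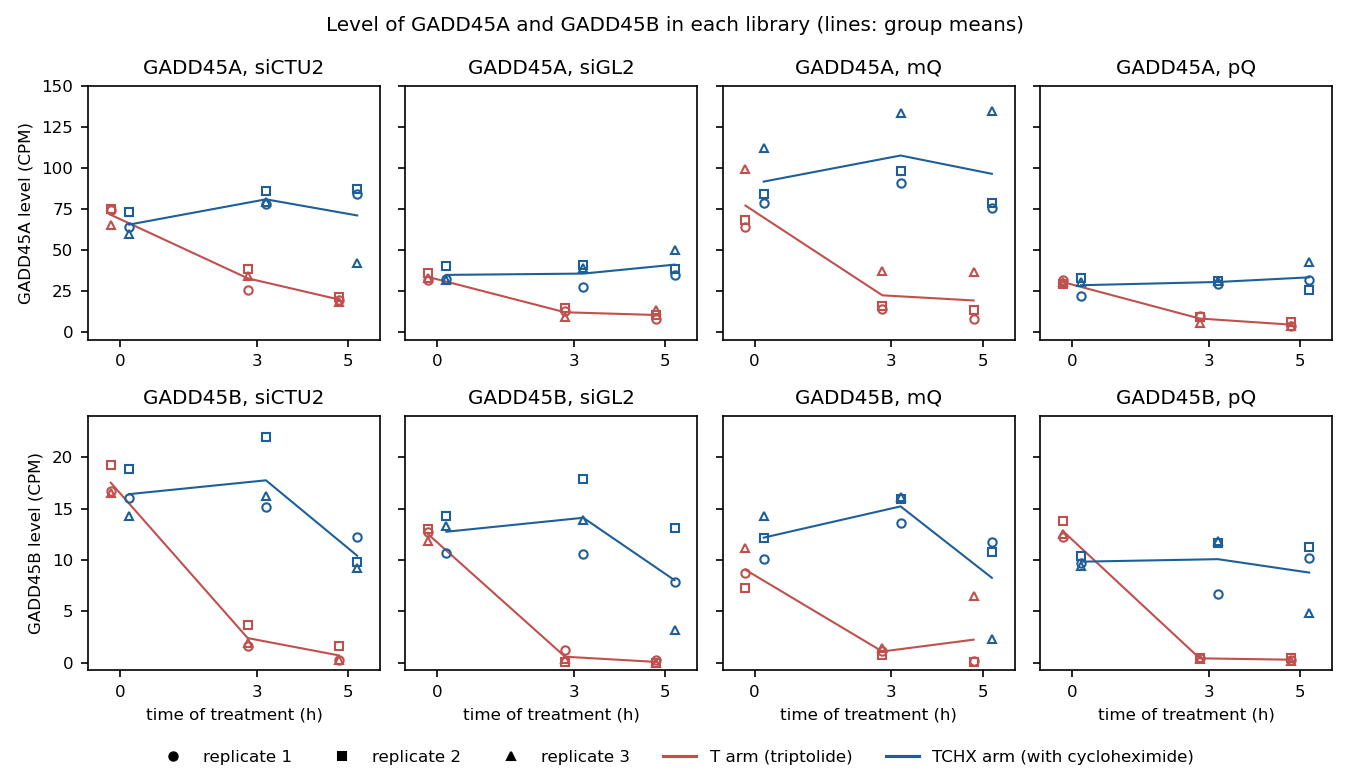
Level of GADD45A (top) and GADD45B (bottom) in CPM (linear axes) in each of the 72 libraries, against hours of treatment, with red for the T arm, blue for the TCHX arm, a marker shape for each replicate and lines through the group means. In the T arm both fall by 3 h in all 4 conditions, and in the TCHX arm the 3 h values lie near the 0 h values. In mQ cells at 5 h, replicate 3 of the T arm (6.48 CPM of GADD45B) lies above replicate 3 of the TCHX arm (2.32 CPM).

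The genes known to act with or upon GADD45 were described by lists, which share genes. JUN, ATF3, EGR1 and MYC were on the lists of transcription factors and of immediate early genes. ATF4 was on those of transcription factors and of NMD references. The shares to read these counts against are the 36% (CTU2) and 24.8% (glutamine) of all genes that differed in either direction. Of 16 partners and effectors, 4 were higher and 6 lower in siCTU2 cells at 0 h, with a median log2 difference of -0.18 (0.00 over all genes). CDKN1A, which encodes p21, rose by 2.49 (SE 0.10), and MAP3K4, the kinase bound by GADD45 proteins, fell by 0.60 (SE 0.15). In mQ cells 1 partner was higher and 5 were lower. CDKN1A rose by 0.60 (SE 0.18), PCNA fell by 1.25 (SE 0.14) and CCNB1, which encodes cyclin B1, fell by 0.92 (SE 0.11). In the TCHX arm at 0 h MAP3K4 (-0.11) and, in mQ cells, CDKN1A (0.31), PCNA (-0.62) and CCNB1 (-0.56) did not pass the threshold. For mQ against pQ cells, this arm holds the pQ library that stands apart. With it 810 genes passed, and 2553 without it, against 3071 in the T arm. Values without it are not given for these genes, nor for UPF3B and SMG1 below. Of 18 transcription factors linked to GADD45 genes, 7 were higher and 4 lower in siCTU2 cells, with JUN up by 1.61 (SE 0.16) and BRCA1 down by 1.01 (SE 0.09). In mQ cells 7 were higher and 3 lower. ATF4, the main factor of the amino acid stress response, rose by 2.61 (SE 0.12), and DDIT3 and ATF3, which act below it, rose by 3.16 (SE 0.16) and 3.00 (SE 0.21). Of 19 tested factors of NMD and AU-rich element decay, 6 were higher and 7 lower in siCTU2 cells, among them UPF3B (0.93, SE 0.09) and SMG5 (-1.18, SE 0.15), and 6 were higher and 3 lower in mQ cells, among them UPF3B (0.75, SE 0.10) and SMG1, the kinase that starts NMD (0.49, SE 0.11), the latter 2 not passing in the TCHX arm (0.49 and 0.39). Of 11 tested immediate early genes, 6 were higher and 2 lower in siCTU2 cells, with a median of 0.73, and 4 were higher and 2 lower in mQ cells, with a median of 0.03. Of 7 transcripts used as references for NMD, 0 were higher and 1 was lower in siCTU2 cells, and 4 were higher and 1 was lower in mQ cells, among them the snoRNA host transcripts SNHG1 (1.06, SE 0.14) and GAS5 (0.69, SE 0.11). All those named with rose, fell, higher or lower had an edgeR adjusted p under 0.05.

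The loss of both mRNAs after the transcription block was then measured. Since a transcription block lowers most mRNAs, counts were scaled to genes whose share of the library rose by at least 1.1-fold at 3 or 5 h in every replicate and arm of an experiment, which are taken as stable (198 genes in the siRNA and 82 in the medium experiment). The value of 100% is the 0 h library of the same arm and replicate. At 3 h in the T arm, GADD45A was left at 23.9, 41.2 and 37.4% in siCTU2 cells and at 31.0, 30.8 and 20.8% in siGL2 cells. In the medium experiment it was left at 15.6, 15.8 and 22.3% in mQ cells and at 22.4, 21.5 and 11.7% in pQ cells. Over these 12 libraries the median was 22.3%. If the loss was exponential from 0 h, this range corresponds to half-lives of 0.970 to 2.34 h, with a median of 1.39 h. The 5 h libraries gave longer ones, 1.42 to 2.62 h with a median of 1.93 h, so the half-life depends on the time it is taken from. It also depends on the scaling. In CPM, without the stable genes, GADD45A was left at 34.4, 51.6 and 52.8% in siCTU2 and at 40.4, 40.5 and 27.6% in siGL2 cells at 3 h. The same values were 22.5, 23.7 and 37.3% in mQ and 32.2, 31.1 and 19.0% in pQ cells. The log2 change at 3 h was -1.56 (SE 0.25), -1.85 (SE 0.22), -2.41 (SE 0.47) and -2.43 (SE 0.27) in siCTU2, siGL2, mQ and pQ cells, with edgeR adjusted p-values of 0.000187, 1.28e-05, 0.00107 and 3.66e-06. The share of all genes that fell was 36%, 28.6%, 55.4% and 55.2% in the same order. A lower value than that of GADD45A was found for 9.69%, 6.63%, 5.68% and 4.47% of genes. The median of all genes was -0.55, -0.47, -0.71 and -0.69 on the same log2 scale, and relative to it GADD45A changed by -1.01, -1.38, -1.70 and -1.74.

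GADD45B was lost further than GADD45A in the same libraries. At 3 h in the T arm, GADD45B had 18, 40 and 27 counts in siCTU2 cells, 12, 1 and 3 in siGL2 cells, 10, 5 and 13 in mQ cells, and 4, 4 and 4 in pQ cells, against 71 to 213 counts in the 12 T arm libraries at 0 h. It was left at 6.70, 15.1 and 8.24% in siCTU2 cells and at 7.53, 0.657 and 2.49% in siGL2 cells. It was left at 8.95, 7.01 and 7.43% in mQ cells and at 2.40, 2.29 and 1.97% in pQ cells. The share left was below that of GADD45A in 12 of 12 libraries. Half-lives computed in the same way were 0.414 to 1.1 h with a median of 0.776 h, and where a library held under 5 counts they rest on those few counts. The log2 changes were -3.31 (SE 0.45), -4.74 (SE 0.64), -3.64 (SE 0.92) and -5.47 (SE 0.43) in siCTU2, siGL2, mQ and pQ cells, with edgeR adjusted p-values of 4.38e-05, 5.03e-05, 0.0041 and 1.22e-07. Relative to the median of all genes they were -2.76, -4.27, -2.93 and -4.77, and 1.17%, 0.517%, 2.01% and 0.270% of genes had a lower value than GADD45B. The siGL2 value was -6.01 without replicate 1 and -4.22 without replicate 2, and in mQ cells the call was lost without replicate 2 (-3.62, edgeR adjusted p = 0.0545).

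By 5 h of the T arm, GADD45B was close to the limit of counting. It had 2, 23 and 2 counts in siCTU2 cells, 2, 0 and 0 in siGL2 cells, and 3, 5 and 1 in pQ cells. In mQ cells it had 1 and 1 counts in replicates 1 and 2 and 100 in replicate 3, the library that stands apart. That library also held 25.9 CPM of the immediate early gene JUN, against 1.18 and 0.225 CPM in replicates 1 and 2, and the leukocyte genes given above. The part of these in its GADD45B counts was not tested. GADD45A was left at 17.9, 22.4 and 14.6% in siCTU2 cells and at 18.5, 22.3 and 26.6% in siGL2 cells at 5 h. It was left at 9.16, 13.8 and 26.6% in mQ cells and at 9.06, 15.2 and 8.69% in pQ cells, the highest mQ value being that of the library that stands apart.

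**Figure D2:**
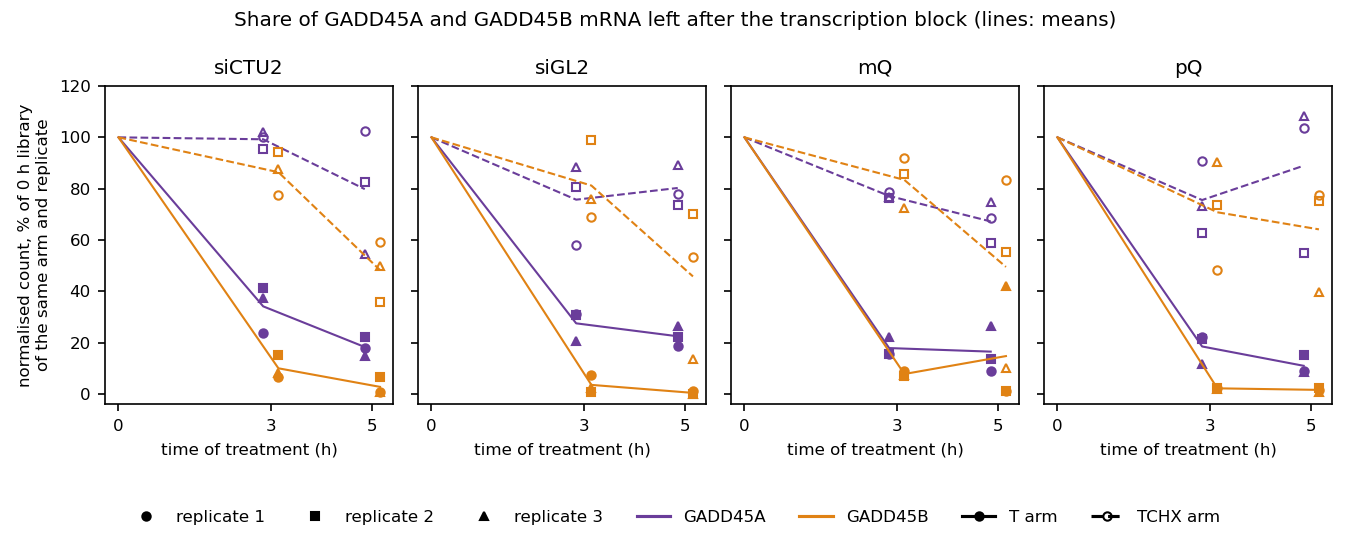
Normalised count left as a percentage of the 0 h library of the same arm and replicate (vertical axis), against hours of treatment, with a panel for each condition, violet for GADD45A, orange for GADD45B, filled markers and full lines for the T arm, open markers and broken lines for the TCHX arm, and lines through the means. At 3 h of the T arm the GADD45B values (0.657 to 15.1%) lie below the GADD45A values of the same libraries, while at 3 h of the TCHX arm both lie between 48.3 and 102%.

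With translation blocked as well, neither mRNA fell past the threshold over 3 h in any condition under this scaling. GADD45A was left at 100.3, 95.5 and 102% in siCTU2 cells and at 58.2, 80.5 and 88.4% in siGL2 cells at 3 h of the TCHX arm. It was left at 78.5, 76.2 and 76.7% in mQ cells and at 91.0, 62.6 and 73.2% in pQ cells, the last against the 0 h library that stands apart. GADD45B was left at 77.5, 94.3 and 87.5% in siCTU2 cells, 68.8, 98.96 and 75.9% in siGL2 cells, 92.1, 85.6 and 72.5% in mQ cells, and 48.3, 73.7 and 90.5% in pQ cells. At 3 h the 2 genes were not ordered as in the T arm, GADD45B being below GADD45A in 6 of 12 libraries, while at 5 h it was below in 10 of 12 (11 of 12 in the T arm). The log2 changes of GADD45A were -0.02 (95% CI -0.53 to 0.50), -0.40 (-0.84 to 0.03), -0.38 (-1.31 to 0.55) and -0.45 (-0.97 to 0.08) in siCTU2, siGL2, mQ and pQ cells. Those of GADD45B were -0.20 (-1.02 to 0.63), -0.28 (-1.29 to 0.73), -0.28 (-1.87 to 1.30) and -0.51 (-1.17 to 0.15). The edgeR adjusted p-values lay between 0.1475 and 0.973, while 3.79%, 19.2%, 37.1% and 40.9% of all genes changed in either direction in the same order of conditions. All 8 values were above the median of all genes (-0.32, -0.48, -0.61 and -0.57), by 0.06 to 0.32, and all turned positive under TMM scaling, at 0.06 to 0.33. With the few genes that rose at both times as the stable set, 3 of them passed the threshold, GADD45A in siGL2 (-0.90) and pQ cells (-0.86) and GADD45B in pQ cells (-0.90), and GADD45A in siGL2 cells also passed without replicate 3 (-0.51, edgeR adjusted p = 0.0385). Without the 0 h library that stands apart the pQ values were -0.48 and -0.62. At 5 h, GADD45A was left at a median of 76.3% over the 12 TCHX libraries and GADD45B at a median of 54.4%, and GADD45B at 13.6, 10.1 and 39.9% in replicate 3 of siGL2, mQ and pQ cells, below the other replicates of each group.

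The effect of cycloheximide was tested directly between both arms at the same time. At 3 h, the normalised counts of GADD45A in the 2 arms did not overlap in 4 of 4 conditions, nor did those of GADD45B. The share of all genes without overlap was not counted. GADD45A was 758 to 918 in the TCHX arm of siCTU2 cells and 246 to 401 in the T arm, and 258 to 409 against 82.9 to 143 in siGL2 cells. It was 771 to 1118 against 119 to 306.3 in mQ cells, and 257 to 286 against 47.0 to 92.2 in pQ cells. GADD45A was higher with cycloheximide by 2.54-fold in siCTU2 cells (log2 1.34, SE 0.25, edgeR adjusted p = 0.00351), where 4.31% of 13638 genes were higher. It was higher by 2.88-fold in siGL2 cells (log2 1.53, SE 0.21, edgeR adjusted p = 0.000356), where 3.44% of genes were higher. In pQ cells the rise was 3.55-fold (log2 1.83, SE 0.26, edgeR adjusted p = 0.000431; 2.81% of genes higher). In mQ cells it was 4.95-fold (log2 2.31, SE 0.47, edgeR adjusted p = 0.0467), where 0.342% of genes were higher, and the call was lost with the 0 h difference between the arms subtracted (2.03, edgeR adjusted p = 0.634). The calls in either direction over all genes numbered 46 in mQ and 380 in pQ cells, and 138 and 652 with the replicate as a block.

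GADD45B had the larger change at 3 h in all 4 conditions. Its counts were 142, 341 and 176 in the TCHX arm of siCTU2 cells and 100, 250 and 151 in that of siGL2 cells, against the 1 to 40 counts of the T arm given above. They were 147, 166 and 242 in mQ cells and 73, 140 and 135 in pQ cells. The rise was 7.68-fold in siCTU2 cells (log2 2.94, SE 0.44, edgeR adjusted p = 0.000804), 22.9-fold in siGL2 cells (log2 4.52, SE 0.64, edgeR adjusted p = 0.000373) and 22.7-fold in pQ cells (log2 4.51, SE 0.43, edgeR adjusted p = 1.77e-05). Only 0.279%, 0.0988% and 0.112% of genes had a higher value in these conditions. In mQ cells the value was 14.2-fold (log2 3.82, SE 0.92) and did not pass the threshold (edgeR adjusted p = 0.0585). Without the library that stands apart, which is at 5 h but enters the spread of all 18 libraries, the mQ value at 3 h was 3.82 with an edgeR adjusted p of 2.23e-05. Without replicate 1, the calls at 3 h were lost for GADD45A in siCTU2 (1.20, adjusted p = 0.288), mQ (2.18, adjusted p = 0.473) and pQ cells (2.01, adjusted p = 0.0524), and for GADD45B in siCTU2 cells (2.81, adjusted p = 0.104). Without replicate 2 they were lost for GADD45A in siCTU2 (1.44, adjusted p = 0.0801) and mQ cells (2.15, adjusted p = 0.709), and for GADD45B in siGL2 cells (3.78, adjusted p = 0.0558).

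**Figure D3:**
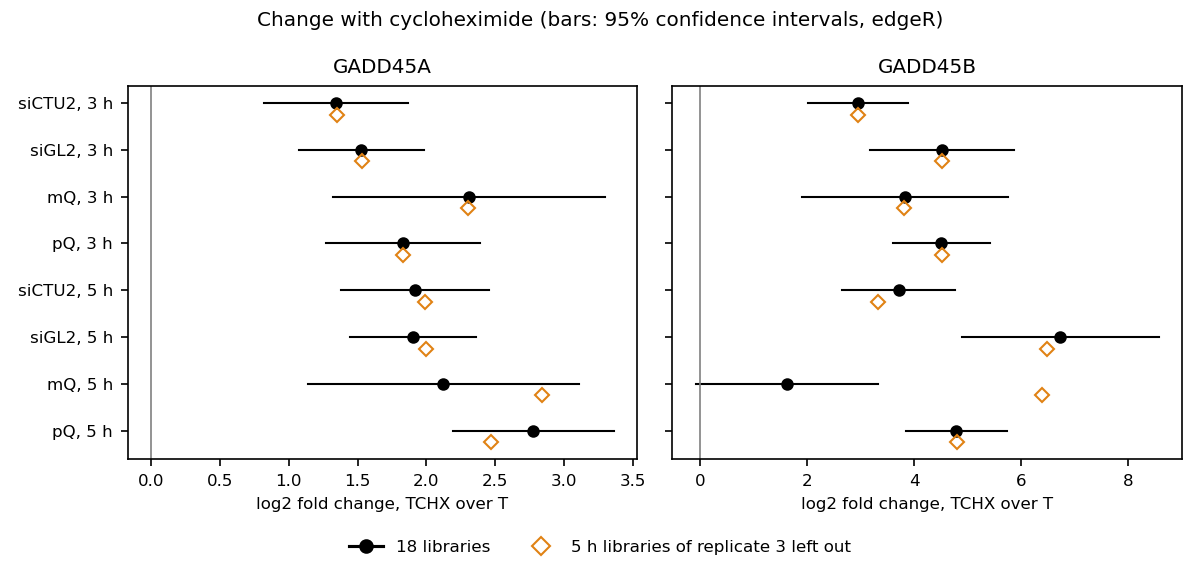
Log2 fold change of the TCHX arm over the T arm (horizontal axis) for GADD45A (left) and GADD45B (right) at 3 h and 5 h in each condition, with black points and bars for the edgeR estimate over 18 libraries and its 95% confidence interval, and open diamonds for the estimate without the 5 h libraries of replicate 3. At 3 h the diamonds lie close below the points at like values, and at 5 h in mQ cells GADD45B moves from 1.61 to 6.39.

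At 5 h, GADD45A was higher with cycloheximide by 1.92 (SE 0.26), 1.90 (SE 0.22) and 2.78 (SE 0.28) on the log2 scale in siCTU2, siGL2 and pQ cells, with edgeR adjusted p-values of 3.87e-05, 1.68e-05 and 2.82e-06. The siCTU2 value was 2.18 without the library that stands apart. The share of all genes that were higher was 19.2%, 9.44% and 9.88%. GADD45B was higher by 3.71 (SE 0.50) in siCTU2 cells (edgeR adjusted p = 4.7e-05) and by 4.79 (SE 0.45) in pQ cells (edgeR adjusted p = 1.44e-06). In siCTU2 cells the value was 3.77 without the library that stands apart and 5.67 without replicate 2, whose T arm library held 23 of the group's 27 counts. In siGL2 cells GADD45B had 116, 117 and 19 counts in the TCHX arm against 2 in the whole T arm (edgeR adjusted p = 5.91e-05). The ratio of its summed counts was 132 (exact 95% counting interval 36.1 to 1095), and such intervals cover counting error only.

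In mQ cells at 5 h, neither gene passed the threshold in the fit without a replicate block. GADD45A differed by 2.12 (SE 0.47, edgeR adjusted p = 0.0718). It passed with the replicate block (2.33, edgeR adjusted p = 0.00234), with DESeq2 (2.14, adjusted p = 0.00105) and with TMM scaling (2.28, edgeR adjusted p = 0.013), all libraries kept. GADD45B differed by 1.61 (SE 0.81, 95% CI -0.09 to 3.31, edgeR adjusted p = 0.352), in a comparison in which 0.193% of genes were higher. The GADD45B counts of replicates 1 and 2 were 124 and 135 in the TCHX arm and 1 and 1 in the T arm, while those of replicate 3 were 15 in the TCHX arm and 100 in the T arm. GADD45A in the same pair kept the order of the other replicates, with 135 CPM in the TCHX arm and 36.6 CPM in the T arm. Whether these libraries were mixed or mislabelled was not tested, and the labels were kept. Without the library that stands apart, GADD45A was higher by 3.10 (edgeR adjusted p = 2.48e-05) and GADD45B by 5.97 (edgeR adjusted p = 3.25e-05). Without both 5 h libraries of replicate 3, a choice made after seeing the data, the values were 2.84 and 6.39 (edgeR adjusted p = 2.17e-06 and 4.24e-09).

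The 2 mRNAs were next compared within each library, as GADD45B counts relative to GADD45A counts, a ratio that needs no scaling between libraries. These are counts of 3′ ends, not divided by length, so the change of the ratio was compared and not its size. At 0 h of the T arm the ratio was 24.5% ± 1.77 in siCTU2, 37.1% ± 2.10 in siGL2, 11.8% ± 1.68 in mQ and 42.0% ± 4.01 in pQ cells (SD, n = 3). By 3 h of the T arm it was 7.11% ± 2.04, 4.88% ± 4.45, 5.44% ± 2.17 and 5.32% ± 1.43 (SD, n = 3). The groups at 0 h and 3 h did not overlap in any condition. The mean change over the 4 conditions was -2.26 on the log2 scale (exact permutation test within conditions, two-sided p = 1.25e-05, the smallest the 160000 splits can give, and 2.5e-05 adjusted over 4 comparisons). With cycloheximide the 3 h ratio was 21.8% ± 3.24, 39.3% ± 4.00, 14.4% ± 2.13 and 32.7% ± 8.41 (SD, n = 3), and its mean change from 0 h of the TCHX arm was -0.03 (exact permutation p = 0.75). The ratio was higher by 2.21 in the TCHX arm than in the T arm at 3 h (exact permutation p = 1.25e-05, adjusted 2.5e-05) and by 2.43 at 5 h (exact permutation p = 0.00095, adjusted 0.00127). The 5 h value was 1.78 without siGL2 cells (exact permutation p = 0.0132), whose T libraries at 0 counts rest on a pseudocount of 0.5, and 2.65 without the libraries that stand apart (exact permutation p = 0.00035). In mQ cells it was 0.94, and 2.05 without the library that stands apart. At 5 h of the TCHX arm the ratio was 15.9% ± 5.41, 20.9% ± 13.8, 10.3% ± 7.48 and 29.0% ± 16.4 in the same order of conditions (SD, n = 3). Its mean change from 0 h was -0.79 (exact permutation p = 0.0136, 0.017 adjusted over 5 comparisons, this one added after seeing the data). The change did not pass without the 5 h libraries of replicate 3 (-0.28, exact permutation p = 0.075), where it was -0.96, -0.40, 0.13 and 0.11 by condition. Nor did it pass without siGL2 cells (-0.69, exact permutation p = 0.0712), replicate 1 (-0.998, exact permutation p = 0.0802) or replicate 3 (-0.30, exact permutation p = 0.123). It passed without replicate 2 (-1.07, exact permutation p = 0.0216) and without the libraries that stand apart (-0.88, exact permutation p = 0.0113).

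**Figure D4:**
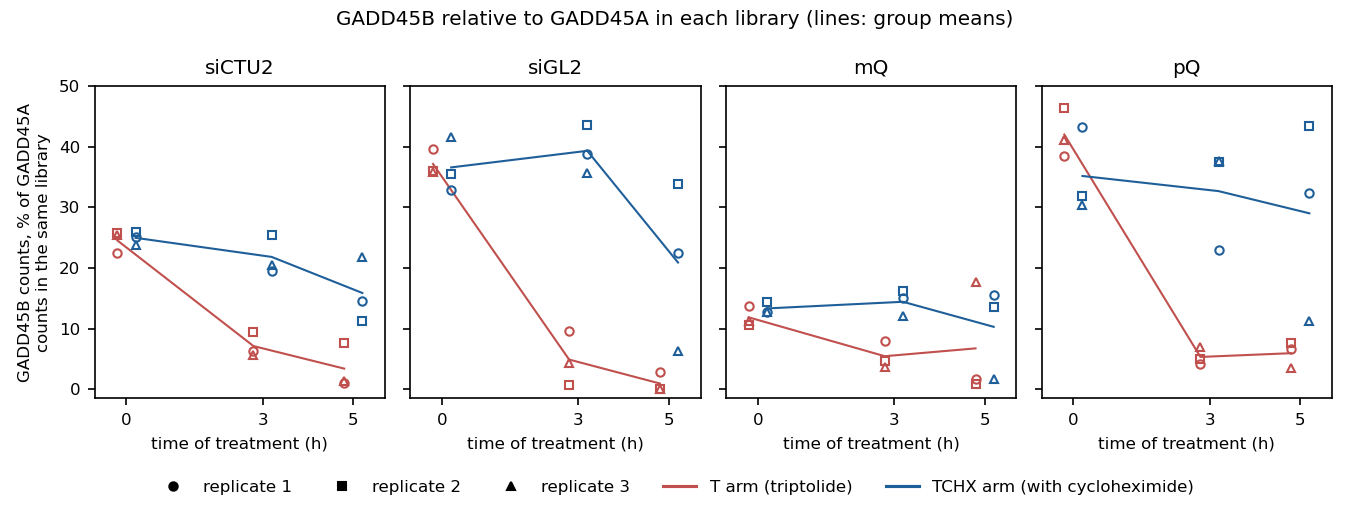
GADD45B counts as a percentage of GADD45A counts in the same library (vertical axis), against hours of treatment, with a panel for each condition, red for the T arm, blue for the TCHX arm, a marker shape for each replicate and lines through the group means. At 3 h all T arm libraries lie at 9.60% or lower and all TCHX libraries at 12.1% or higher. At 5 h, replicate 3 of mQ cells is at 17.7% in the T arm and 1.72% in the TCHX arm.

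Other short-lived mRNAs were set beside them, with the same lists, which share genes. Beside the counts below, 36%, 28.6%, 55.4% and 55.2% of all genes fell in the T arm and 4.31%, 3.44%, 0.342% and 2.81% were higher with cycloheximide at 3 h in siCTU2, siGL2, mQ and pQ cells. Of the 11 immediate early genes, 11, 10, 11 and 11 fell in the T arm by 3 h in siCTU2, siGL2, mQ and pQ cells, with medians of -3.07, -3.22, -3.92 and -3.87. With cycloheximide at 3 h, 7, 7, 2 and 7 of them were higher, with medians of 1.97, 2.80, 2.81 and 2.26. IER2, a nuclear immediate early protein, was higher by 2.50 (SE 0.29), 2.80 (SE 0.27), 4.14 (SE 0.79) and 2.54 (SE 0.27). JUN was higher by 2.70 (SE 0.47), 3.89 (SE 0.53) and 3.27 (SE 0.44) in siCTU2, siGL2 and pQ cells. Of the 7 NMD references, 0, 1, 0 and 0 were higher at 3 h in the same order, the 1 being ATF4 in siGL2 cells (0.85, SE 0.17), although 7, 6, 7 and 7 fell in the T arm. Their medians with cycloheximide were 0.69, 0.59, 0.46 and 0.43, while the medians of all genes were 0.13, 0.04, 0.16 and 0.05. Of the 16 partners, 0 were higher at 3 h in all 4 conditions and 1 was lower, CDKN1A in siGL2 cells (-0.67, SE 0.18). In the T arm 7, 5, 12 and 13 partners fell, with medians of -0.72, -0.53, -0.76 and -0.79, close to those of all genes. Of the 18 transcription factors, 5, 5, 2 and 5 were higher with cycloheximide at 3 h, and of 19 decay factors 4, 2, 1 and 1, among them ZFP36L1, which binds AU-rich elements, in siCTU2 (1.59, SE 0.37), mQ (2.66, SE 0.46) and pQ cells (1.90, SE 0.29). The calls are edgeR adjusted p-values under 0.05.

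Whether CTU2 or glutamine changed the translation-dependent decay of either mRNA was tested last. The TDD index is the normalised count of the TCHX arm minus that of the T arm, divided by the 0 h count. This 0 h count is the mean of the T and TCHX libraries of the replicate. An index of 0 means no difference between the arms and 1 means that all of the starting mRNA was kept by cycloheximide alone. At 3 h, the index of GADD45A was 0.604, 0.534 and 0.532 in siCTU2 cells and 0.311, 0.547 and 0.668 in siGL2 cells. It was 0.748, 0.747 and 0.574 in mQ cells and 0.491, 0.452 and 0.559 in pQ cells. All 12 values were positive. Those of siCTU2 cells lay within the range of siGL2 cells, while those of mQ cells were above those of pQ cells at this time, an order that did not hold at 5 h. How many of all genes were positive throughout or separated in this way was not counted. Over both times, 2.19%, 0.968%, 0.346% and 0.507% of genes in siCTU2, siGL2, mQ and pQ cells had a higher mean index than GADD45A. For GADD45B these shares were 1.96%, 0.618%, 0.282% and 0.756%. The index of GADD45B at 3 h was 0.646, 0.787 and 0.686 in siCTU2, 0.575, 1.02 and 0.786 in siGL2, 0.922, 1.06 and 0.727 in mQ, and 0.400, 0.608 and 0.689 in pQ cells. The mean over both times was 0.550 ± 0.105 in siCTU2 and 0.556 ± 0.0850 in siGL2 cells for GADD45A, and 0.564 ± 0.0272 and 0.625 ± 0.219 for GADD45B (SD, n = 3). The differences, siCTU2 minus siGL2, were -0.01 (SE 0.08, limma adjusted p = 0.982) and -0.06 (SE 0.10, limma adjusted p = 0.846), in a comparison in which 0% of 12288 genes passed (972 at an unadjusted p under 0.05). In the medium experiment the means were 0.639 ± 0.0898 in mQ and 0.600 ± 0.150 in pQ cells for GADD45A, and 0.675 ± 0.387 and 0.548 ± 0.0591 for GADD45B (SD, n = 3). The differences, mQ minus pQ, were 0.04 (SE 0.10) and 0.13 (SE 0.17, both limma adjusted p = 0.998), and again 0% of 12428 genes passed (524 at an unadjusted p under 0.05). Without replicate 3, which leaves out every library that stands apart, the differences were 0.09 and -0.14 by CTU2 and 0.16 and 0.33 by glutamine for GADD45A and GADD45B. Exact permutation tests of 3 against 3 gave p = 1, 1, 0.7 and 0.6, where 0.1 is the smallest p they can give. In replicate 3 of mQ cells at 5 h the GADD45B index was -0.271.

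**Figure D5:**
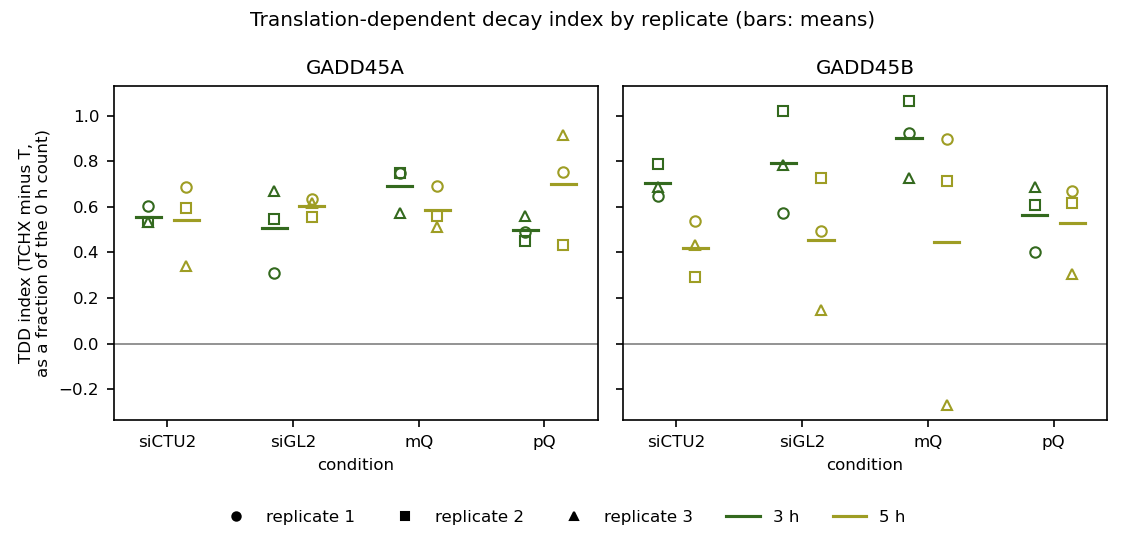
Index of translation-dependent decay (TDD, a fraction of the mean 0 h count of both arms) of GADD45A (left) and GADD45B (right) in each replicate, by condition, in dark green at 3 h and light green at 5 h, with bars for the means. Values lie between 0.145 and 1.06 except for GADD45B in mQ cells at 5 h, where replicate 3 is at -0.271.

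The difference in the cycloheximide effect between conditions, averaged over 3 and 5 h on the log2 scale, was -0.08 for GADD45A between siCTU2 and siGL2 cells (95% CI -0.56 to 0.40, edgeR adjusted p = 0.973). It was -2.30 for GADD45B (95% CI -3.79 to -0.81), which did not pass over all genes (unadjusted p = 0.00369, edgeR adjusted p = 0.203), while 0.379% of 14259 genes did. Without the library that stands apart (labelled siCTU2) the differences were 0.05 and -2.27, and the GADD45B value was -0.32 without replicate 2 and -4.65 without replicate 1. Between mQ and pQ cells the differences were -0.09 (95% CI -0.88 to 0.71) and -1.93 (95% CI -3.53 to -0.33), both with an edgeR adjusted p of 1, where 0% of 14177 genes passed (525 at an unadjusted p under 0.05). Without the mQ (T, 5 h) and pQ (TCHX, 0 h) libraries that stand apart they were 0.40 and 0.24. The T arm loss over 3 h differed by 0.28 (95% CI -0.39 to 0.96) for GADD45A and by 1.43 (95% CI -0.22 to 3.09; 0.49 without replicate 2 and 2.92 without replicate 1) for GADD45B between siCTU2 and siGL2 cells, where 0% of genes passed with edgeR (414 at an unadjusted p under 0.05, and 8 by DESeq2). It differed by 0.02 (95% CI -1.06 to 1.11) and 1.83 (95% CI -0.47 to 4.12) between mQ and pQ cells, where 0% of genes passed with edgeR (356 at an unadjusted p under 0.05, and 2 by DESeq2). The last 4 intervals include both no difference and, for GADD45B, differences of several fold.

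The 24 groups were finally ordered by mean level. GADD45A was highest in the TCHX groups of mQ cells, with 108 CPM ± 22.9 at 3 h, 96.5 ± 33.4 at 5 h and 91.8 ± 17.7 at 0 h (SD, n = 3), followed by the TCHX 3 h group of siCTU2 cells with 81.0 ± 4.43. It was lowest in the T 5 h group of pQ cells with 4.69 ± 1.55. Neighbours in this order overlapped in 22 of 23 pairs, and the exception lay between siCTU2 TCHX 0 h (65.6 ± 6.69) and siGL2 TCHX 5 h (41.2 ± 7.90), the 8th and 9th. GADD45B was highest in siCTU2 cells, with 17.8 CPM ± 3.66 at TCHX 3 h, 17.5 ± 1.51 at T 0 h and 16.4 ± 2.30 at TCHX 0 h, and lowest in siGL2 cells at T 5 h with 0.0741 ± 0.128 (SD, n = 3). All 23 pairs of neighbours overlapped. Over these 24 group means of log2(CPM + 1), which share libraries, arms and depth, the genes most like GADD45A among 10936 were IFRD1 (r = 0.952), SMG1 (0.937), ATF3 (0.929), ZNF875 (0.925) and TFAP2C (0.923). Those most like GADD45B were ING1 (0.977), RPP38 (0.973), PDE4B (0.972), MIER3 (0.969) and BCL3 (0.968), and the 2 genes had an r of 0.835 with each other, as a description only.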

How the data were processed

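Cytoplasmic RNA of A375 cells was measured in 72 libraries, in 24 groups of 3 replicates. Per the labels and the study's methods, the authors trimmed the reads with fastp 0.20.1, aligned them to GRCh38.p13 with HISAT2 2.2.1 and counted them per gene with HTSeq 0.13.5 (NCBI annotation, forward reads). They deposited raw counts, 5987692 to 15534331 per library. No removal of PCR duplicates is stated, and the table held 0 spike-in names.

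Counts were tested with edgeR 4.0.16 (quasi-likelihood, Benjamini-Hochberg adjustment, threshold 0.05) in R 4.3.3, with genes of low counts filtered. TMM scaling was used at 0 h. The 6 groups of a condition, or the 12 of an experiment for differences between conditions, were fitted together and scaled to stable genes otherwise. Stable genes had over 0.2 CPM at 0 h. TDD indices were fitted with limma 3.58.1 with time and replicate as terms, for genes with a mean 0 h count of at least 10. The log2 ratio of both genes used a pseudocount of 0.5 (scipy 1.17.1), and DESeq2 1.42.0 was an alternative. Scripts were tested on simulated data. Replicates are not said to be separate cultures, so p-values measure the spread between libraries. Same-numbered libraries deviated together (every pair's correlation over 0.1) in 9 of 18 comparisons, namely the cycloheximide comparisons at 3 h in siCTU2, mQ and pQ cells and at 5 h in siGL2 and pQ cells, the T arm in siCTU2 and pQ cells, and the TCHX arm in siGL2 and mQ cells. The members and lists were chosen with earlier results of these data known. Genes of a list were named only from its 3 lowest p-values per direction, past the threshold, at 0 h and with cycloheximide at 3 h, and the 5 genes most like each member were named too.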

Additional observations from a re-analysis of the deposited data

How the results depend on the processing

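Of 482 values of GADD45A and GADD45B under an alternative, 414 kept their direction and side of the threshold, 13 lost the call, 23 gained it and 32 changed sign. Of the 170 for cycloheximide at 3 and 5 h, 0 changed sign and 8 lost the call. The causes were not tested. All values are log2 differences except the TDD index. At 0 h, GADD45B with CTU2 knockdown was 0.37 in the TCHX arm and 0.41 to 0.52 leaving out 1 library at a time. With glutamine depletion it was 0.33 in the TCHX arm and 0.31 with pQ library 3 left out, where MYC was 0.12 and SNHG15 0.06, the latter 0.05 without that library. Leaving out 1 replicate at a time, cycloheximide at 3 h gave 1.20 to 1.44 (GADD45A) and 2.81 to 3.18 (GADD45B) in siCTU2, 3.78 to 5.97 (GADD45B) in siGL2, 2.15 to 2.72 and 3.57 to 4.00 in mQ, and 1.60 to 2.01 (GADD45A) in pQ cells. In mQ cells at 3 h, GADD45A lost its call with the 0 h difference subtracted (2.03, adjusted p = 0.634), and GADD45B passed without a filter (3.82), with genes stable at both times (3.90), without the libraries that stand apart (3.82) and without the 5 h libraries of replicate 3 (3.81). In mQ cells at 5 h, GADD45A passed without a filter (2.12), with the replicate block (2.33), with DESeq2 (2.14), with genes stable at both times (2.25), with TMM (2.28) and without the libraries that stand apart (3.10) or the 5 h libraries of replicate 3 (2.84), with 1.87 to 2.84 leaving out 1 replicate. GADD45B was 1.61, 5.97 and 6.39 without a filter and without those libraries, and 0.78 to 6.39 leaving out 1 replicate. The T arm fall of GADD45B in mQ cells was -3.72 to -3.58. In the TCHX arm over 3 h, TMM gave 0.30 and 0.12 (siCTU2), 0.06 and 0.17 (siGL2), 0.24 and 0.33 (mQ), and 0.12 and 0.06 (pQ) for GADD45A and GADD45B. Genes stable at both times gave -0.90 for GADD45A in siGL2 and -0.86 and -0.90 in pQ cells. Leaving out 1 replicate, GADD45A was -0.03 to 0.02 in siCTU2 and -0.51 to -0.25 in siGL2 cells.

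For differences between conditions, the cycloheximide effect on GADD45B passed without a filter (-2.30 by CTU2, -1.93 by glutamine). By CTU2, GADD45A was 0.02 with genes stable at both times, 0.05 without the libraries that stand apart, 0.20 with the 0 h difference subtracted, and -0.27 to 0.04 leaving out 1 replicate. By glutamine, GADD45A was 0.36 and 0.40 under the first 2 of these, 0.42 without the 5 h libraries of replicate 3 and 0.02 with the replicate block, and GADD45B was 0.24 and 0.45 without those libraries, with -0.50 to 0.74 and -2.56 to 0.63 leaving out 1 replicate. The T arm loss of GADD45A by glutamine was -0.04 with the replicate block, -0.24 with genes stable at both times, and -0.49 to 0.26 leaving out 1 replicate. With each arm divided by its own 0 h library, the TDD difference was 0.10 for GADD45A by CTU2, and -0.13 and -0.10 for GADD45A and GADD45B by glutamine. Leaving out 1 replicate it was -0.10 to 0.09 and -0.14 to 0.08 by CTU2, and -0.05 to 0.16 for GADD45A by glutamine. The change of the GADD45B to GADD45A ratio in the TCHX arm lost its call at 5 h without siGL2 cells (-0.69) and without the 5 h libraries of replicate 3 (-0.28). It also lost the call without replicate 1 (-0.998) or replicate 3 (-0.30) and kept it without replicate 2 (-1.07). At 3 h the change of this ratio was -0.13 to 0.06 leaving out 1 replicate. The other 3 ratio comparisons kept their call under all settings tried, which were chosen after seeing the data.

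Counts of genes that passed moved further than the members. Cycloheximide at 3 h called 46 genes in mQ cells (0 to 2134 under the alternatives), 380 in pQ (58 to 730), 590 in siCTU2 (25 to 1526) and 461 in siGL2 cells (57 to 1092). At 5 h it called 31 (0 to 2613), 1363 (513 to 3157), 2650 (1099 to 3088) and 1313 (422 to 2060) in the same order. The T arm over 3 h called 7599 (981 to 11406), 7510 (1243 to 10430), 5069 (1182 to 8447) and 3904 (1259 to 8375), and the TCHX arm 4984 (1 to 9339), 5464 (39 to 9941), 517 (14 to 7991) and 2529 (108 to 9282). At 0 h glutamine depletion called 3071 (810 to 3494). The differences by condition called 54 (0 to 147) for cycloheximide by CTU2 and 0 for the others, with up to 301 for cycloheximide by glutamine, 101 and 283 for the T arm by CTU2 and glutamine, and 3 and 464 for the TDD index. Among paired comparisons the replicate block moved the count by over 1.5 times for cycloheximide at 3 h in mQ (138) and pQ cells (652) and for the TCHX arm in siGL2 cells (4778), and it changed no call of either member there. Elsewhere it gave 820 for the TCHX arm in siCTU2 cells and 126 for cycloheximide at 5 h in mQ cells. DESeq2 gave no adjusted p for GADD45B in mQ cells. Where T arm libraries held only 0 to 5 GADD45B counts after the block, its fold changes rest on those few counts.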
